A study of Homo sapiens with 18 samples.

Results

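Wnt and β-catenin pathway genes were examined in HCT116 cells as a set of 10 named genes, chosen by symbol: the ligand gene WNT6, the receptor-level genes LGR5, RNF43 and ZNRF3, the cytoplasmic genes CTNNB1, AXIN2 and NKD1, and the transcription factor genes TCF7, LEF1 and ASCL2. Rows for 9 of the 10 were found among the 31004 genes of the count table, and ASCL2 was not analysed here. WNT6 was placed in the set because it was already known to fall strongly when hnRNPK was overexpressed in antisense cells. Its values in every comparison with antisense libraries are therefore a description, with no test, and counts of genes past the test leave it out there.

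Total RNA was sequenced in 18 libraries of HCT116, a human colorectal carcinoma line that carries a mutant CTNNB1. Lentivirus and puromycin selection had been used to make cells that stably express the lncRNA CRLM1, its antisense, or an empty control vector (CRLM1, Antisense and Ctrl backgrounds). Each background then received an hnRNPK overexpression construct or its negative control (NC). This yields Ctrl_NC, Ctrl_hnRNPK, CRLM1_NC, CRLM1_hnRNPK, Antisense_NC and Antisense_hnRNPK, with 3 biological replicates each; all cells of a background share its vector and selection, and the sources used here do not say whether replicates came from separate transductions.

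In the Wnt pathway, secreted ligands bind Frizzled receptors and stop a cytoplasmic destruction complex, built on axin and APC, from degrading β-catenin, which then enters the nucleus and activates genes through TCF/LEF factors. Several of those genes encode feedback inhibitors, among them AXIN2, RNF43, ZNRF3 and NKD1. In colorectal cancer the pathway is usually switched on by loss of APC or by mutations that stabilise β-catenin, so that its output depends less on ligand.

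The upstream sequences are shown for 4 genes that had a RefSeq window and differed in comparisons with antisense cells. In the fit to the counts WNT6 was lowest and CTNNB1 highest of the set with hnRNPK in antisense cells, a fall for which WNT6 was chosen. TCF7 and RNF43 were both lower in antisense cells, as was AXIN2, which had no such window. No result below rests on these sequences. Each is the stretch of 250 bases that ends just before a transcription start in RefSeq (GRCh38.p14), read 5′ to 3′ on the gene's strand. For TCF7 and RNF43 the more upstream of the annotated starts is given. Capitals mark runs of CCCC or of GGGG, its reverse complement, since hnRNPK is known for binding C-rich stretches.
WNT6, chr2:218859555-218859804, plus strand: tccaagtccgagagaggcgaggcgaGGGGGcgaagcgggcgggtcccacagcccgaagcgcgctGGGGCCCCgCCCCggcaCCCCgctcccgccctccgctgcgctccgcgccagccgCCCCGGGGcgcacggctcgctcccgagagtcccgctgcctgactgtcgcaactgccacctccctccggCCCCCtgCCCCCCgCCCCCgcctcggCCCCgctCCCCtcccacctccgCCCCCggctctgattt
CTNNB1, chr3:41199255-41199504, plus strand: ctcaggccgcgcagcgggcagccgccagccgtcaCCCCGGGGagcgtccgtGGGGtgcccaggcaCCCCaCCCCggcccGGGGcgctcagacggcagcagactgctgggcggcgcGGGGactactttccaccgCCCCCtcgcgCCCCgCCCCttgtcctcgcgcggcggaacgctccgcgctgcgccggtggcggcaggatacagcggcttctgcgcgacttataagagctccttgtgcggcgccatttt
TCF7, chr5:134115363-134115612, plus strand: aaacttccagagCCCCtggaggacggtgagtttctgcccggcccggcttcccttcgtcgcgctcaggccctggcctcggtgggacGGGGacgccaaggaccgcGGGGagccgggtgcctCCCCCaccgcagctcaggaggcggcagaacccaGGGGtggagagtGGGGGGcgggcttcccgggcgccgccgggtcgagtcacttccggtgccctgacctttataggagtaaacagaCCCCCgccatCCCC
RNF43, chr17:58417535-58417784, minus strand: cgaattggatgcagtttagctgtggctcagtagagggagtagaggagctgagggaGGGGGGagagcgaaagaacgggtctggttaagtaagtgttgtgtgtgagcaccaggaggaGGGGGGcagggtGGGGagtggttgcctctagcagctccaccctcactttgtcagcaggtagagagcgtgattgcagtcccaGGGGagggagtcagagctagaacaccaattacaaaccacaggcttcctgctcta

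RefSeq windows were matched for 5 of the 9 listed genes. AXIN2, LGR5, ZNRF3 and NKD1 had none and were not searched. The core letters of a TCF/LEF site, CTTTGA on either strand, occurred in 0 of the 7 windows searched. Of 35116 windows of the same length 3937 (11.2%) held them, and 7 windows are too few to differ from that share. CCCC on either strand occurred in 87.1% of all windows. The 4 stretches differed in base composition, with a GC content of 79.2% for WNT6, 74.4% for CTNNB1, 70.8% for TCF7 and 56% for RNF43, against a median of 58% over all windows. These matches describe letters in a window and say nothing of binding.

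Library totals ran from 19732681 to 27039520 counts. HNRNPK was higher in each hnRNPK library than in any NC library of its background, with group means of 552 to 652 against 430.3 to 471 CPM (counts scaled to a common library size). In Ctrl cells the margin was narrow, with the lowest hnRNPK library at 491 CPM and the highest NC library at 480 CPM. The CRLM1 gene, LINC01767, was at 0 counts in the 6 Ctrl libraries, at 599 ± 10.5 CPM (SD, n = 3) in CRLM1_NC and at 49.8 ± 0.307 CPM in Antisense_NC. Because strand use in counting is not given, whether the Antisense_NC reads are from CRLM1 or from its antisense cannot be told. Among epithelial markers EPCAM, KRT8, KRT18, KRT19 and CDH1 were all at 83.3 CPM or more, whereas KRT20 and VIL1 did not exceed 22 counts in any library and CDX2 ranged from 2.34 to 16.6 CPM. PTPRC did not exceed 1 count, PECAM1 and CDH5 did not exceed 2, and COL1A2, COL3A1, DCN and LUM did not exceed 4. Of the same marker lists, LYZ and VWF reached 10 counts, CD68 ranged from 0.777 to 4.63 CPM and COL1A1 reached 32.8 CPM. In Ctrl and CRLM1 cells the third hnRNPK library stood apart: over 12959 genes these libraries correlated at 0.954 to 0.960 and 0.946 to 0.953 with their own replicates, and at 0.992 to 0.993 and 0.987 with the NC libraries. The study set both aside; here they are kept, and the counts of genes past the test with hnRNPK are also given without the third library.

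CTNNB1 dominated the set on a per-length scale. In Ctrl_NC its level was 27.1 ± 1.01 FPKM (fragments scaled to transcript length and library size, SD, n = 3), followed by RNF43 at 3.01 ± 0.0208, WNT6 at 2.71 ± 0.374 and TCF7 at 2.38 ± 0.0896. The RNF43 libraries lay within the range of WNT6, and the highest TCF7 library, at 2.44 FPKM, was just below the lowest WNT6 library, at 2.46 FPKM. ZNRF3 at 1.15 ± 0.0802 and NKD1 at 1.01 ± 0.118 FPKM were within their spread of each other, and AXIN2 was lowest of the genes detected at 0.467 ± 0.0666 FPKM.

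LGR5, the R-spondin receptor that marks intestinal stem cells, and LEF1, a TCF/LEF factor, were not detectable at this depth. LGR5 had 0 counts in 17 libraries and 2 counts in the other, and LEF1 did not exceed 3 counts in any. A count of 0 allows up to 3 counts, which is between 0.0972 and 0.165 CPM in these libraries. Neither gene could be tested. Of their relatives, named after their values were seen, LGR4 stood at 0.543 ± 0.0874 FPKM in Ctrl_NC, TCF7L2 at 14.0 ± 0.802 FPKM and TCF7L1 at 7.20 ± 0.308 FPKM, so TCF7 at 2.38 FPKM was the least abundant of the 3 TCF/LEF genes that were detected. AXIN1, at 7.34 ± 0.615 FPKM, exceeded AXIN2 in the same libraries.

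**Figure D1:**
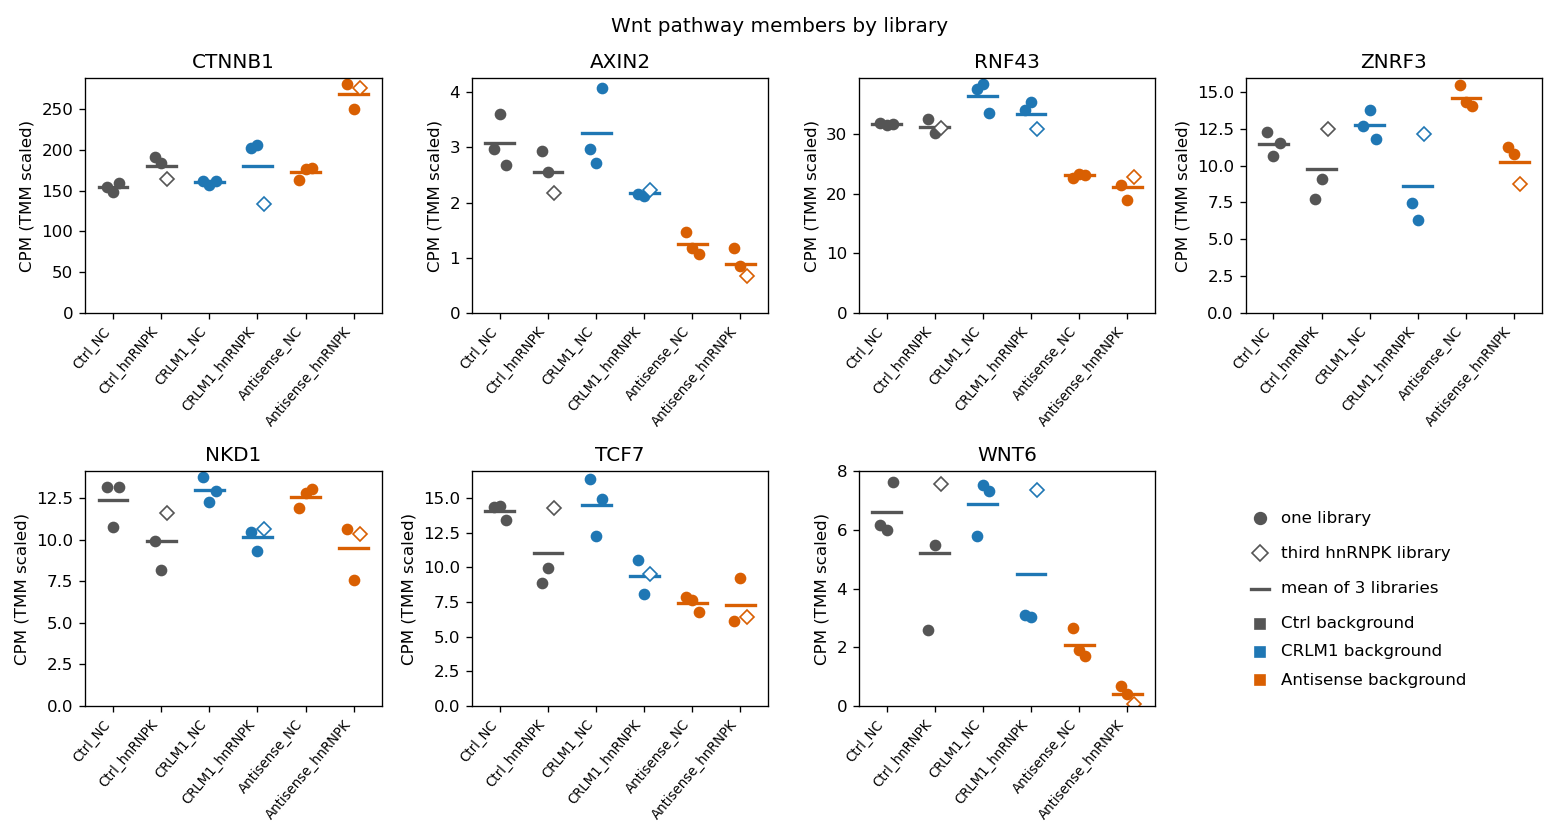
Level of 7 Wnt pathway genes in each library, as CPM scaled by TMM (y axis, linear from 0), by group (x axis); points are libraries, open diamonds are the third hnRNPK libraries and bars are means of 3. AXIN2, RNF43, TCF7 and WNT6 lie lower in both antisense groups than in the NC groups of the other backgrounds, and CTNNB1 is highest in Antisense_hnRNPK, with a mean of 269 CPM.

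The comparison of Antisense_NC with Ctrl_NC asks what expression of the antisense did to these genes. AXIN2, RNF43 and TCF7 fell, CTNNB1 and ZNRF3 were slightly higher, and NKD1 did not pass the test. This makes 5 of 6 tested genes past an adjusted p of 0.05 by the quasi-likelihood test of edgeR with Benjamini-Hochberg adjustment over all genes, in a comparison where 66.5% of the 14389 genes tested passed, so the count is close to what any gene would show.

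AXIN2 encodes the scaffold of the destruction complex that Wnt signalling itself induces. It was measured at 2.97, 3.60 and 2.67 CPM in the Ctrl_NC libraries and at 1.46, 1.18 and 1.07 CPM in the Antisense_NC libraries. The groups did not overlap, and every antisense library was below every control library. The log2 fold change was -1.36 (SE 0.25, edgeR adjusted p = 1.42e-05), and it ranged from -1.50 to -0.87 over 14 alternatives, all with an adjusted p of at most 0.0116.

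TCF7, a TCF/LEF factor that is also a target of the pathway, was at 14.3, 14.4 and 13.4 CPM in Ctrl_NC and at 7.84, 7.64 and 6.76 CPM in Antisense_NC. Its values in the antisense libraries were thus close to 0.512 times the control values, with no overlap. The log2 fold change was -0.97 (SE 0.12, edgeR adjusted p = 5.45e-09). RNF43 encodes a ubiquitin ligase that removes Frizzled from the cell surface, and it was at 31.9, 31.6 and 31.7 CPM in Ctrl_NC against 22.6, 23.3 and 23.2 CPM in Antisense_NC. The fall was smaller, at -0.51 (SE 0.08, edgeR adjusted p = 3.29e-07) on the log2 scale, and again without overlap. Both genes stayed lower and past the test in all 16 alternatives, but the size of the fall varied. It ranged from -1.01 to -0.48 for TCF7 and from -0.52 to -0.20 for RNF43.

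ZNRF3, the paralog of RNF43 with the same role, moved the other way. It was at 12.3, 10.6 and 11.5 CPM in Ctrl_NC and at 15.5, 14.3 and 14.0 CPM in Antisense_NC, a log2 fold change of 0.30 (SE 0.11, edgeR adjusted p = 0.0147). The call was lost without the second Ctrl_NC library, without the first Antisense_NC library and in a single fit of all libraries, with adjusted p-values up to 0.241. CTNNB1, the gene of β-catenin, was at 155, 148 and 159 CPM in Ctrl_NC and 163, 177 and 177 CPM in Antisense_NC, which is 0.11 on the log2 scale (SE 0.04, edgeR adjusted p = 0.0157). That direction was not stable: once each library's trend on the GC content and length of transcripts was removed, the log2 fold change was -0.09 (adjusted p = 0.0513), and the call was lost without the second Ctrl_NC library and in the single fit. NKD1, an inhibitor that acts on Dishevelled, changed by -0.02 (SE 0.11, edgeR adjusted p = 0.886).

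WNT6 encodes a secreted ligand. It was at 6.17, 6.003 and 7.62 CPM in Ctrl_NC and at 2.67, 1.90 and 1.69 CPM in Antisense_NC. Every antisense library was below every control library, and the fitted log2 difference was -1.70 (SE 0.19), or -1.28 (SE 0.20) after the GC and length trend was removed. In bulk RNA, fewer cells that express a gene and less RNA per cell cannot be told apart.

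**Figure D2:**
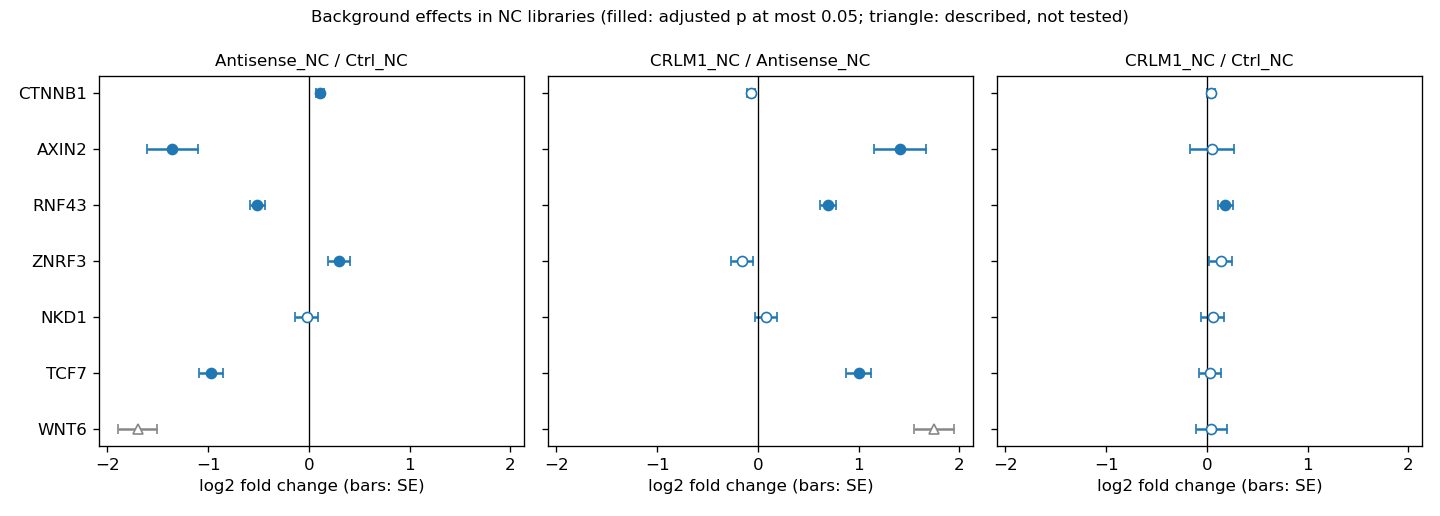
Log2 fold change with its SE (x axis) for 7 genes (y axis) in 3 comparisons of NC libraries; filled circles passed an adjusted p of 0.05, open circles did not, and triangles mark WNT6 where it was not tested. AXIN2, RNF43 and TCF7 stand at -1.36, -0.51 and -0.97 in antisense against control cells and at 1.41, 0.70 and 1.00 in CRLM1 against antisense cells, while in CRLM1 against control cells all 7 lie between 0.03 and 0.18.

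With CRLM1_NC set against Ctrl_NC, which asks for an effect of CRLM1 itself, these genes changed little. RNF43 alone passed, 1 of 7 genes tested where 34.3% of all 14459 genes did. It was at 37.5, 38.3 and 33.4 CPM in CRLM1_NC, all above the Ctrl_NC values, and its log2 fold change was 0.18 (SE 0.07, edgeR adjusted p = 0.0426). That call was lost in 11 alternatives, among them leaving out any 1 of the Ctrl_NC libraries or either of the first and second CRLM1_NC libraries, with adjusted p-values from 0.0106 to 0.535 over all 16. AXIN2 was at 2.97, 2.72 and 4.08 CPM in CRLM1_NC, which overlapped the control values, and its log2 fold change was 0.05 (SE 0.22). CTNNB1, ZNRF3, NKD1, TCF7 and WNT6 had log2 fold changes between 0.03 and 0.14, none past the test.

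CRLM1_NC against Antisense_NC uses the same antisense libraries as above and is no separate evidence of their levels. AXIN2 was higher in CRLM1_NC by 1.41 (SE 0.26, edgeR adjusted p = 1.62e-05), TCF7 by 1.00 (SE 0.13) and RNF43 by 0.70 (SE 0.08) on the log2 scale. These were 3 of 6 genes tested, against 56.4% of all 14364 genes. CTNNB1 at -0.07 (SE 0.04), ZNRF3 at -0.16 (SE 0.11) and NKD1 at 0.08 (SE 0.11) did not pass. WNT6 was at 5.80, 7.53 and 7.34 CPM in CRLM1_NC, above every Antisense_NC library, with a fitted log2 difference of 1.75 (SE 0.20).

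Overexpression of hnRNPK in antisense cells asks whether that protein acts on these genes in cells that express the antisense. CTNNB1 rose, and ZNRF3 and NKD1 fell. AXIN2, RNF43 and TCF7 did not pass, so 3 of 6 genes did, in a comparison where 63.9% of 14501 genes passed. Without the third hnRNPK library CTNNB1 at 0.58, ZNRF3 at -0.45 and NKD1 at -0.52 passed, again 3 of 6, against 62.3% of all genes.

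CTNNB1 was at 163, 177 and 177 CPM in Antisense_NC and at 281, 250.3 and 276 CPM in Antisense_hnRNPK. The hnRNPK libraries were all higher, by 0.64 on the log2 scale (SE 0.08, edgeR adjusted p = 6.49e-06), or 1.55-fold. ZNRF3 was at 11.3, 10.8 and 8.77 CPM in Antisense_hnRNPK, below each of the 3 Antisense_NC libraries, with a log2 fold change of -0.51 (SE 0.13, edgeR adjusted p = 0.00347). NKD1 was at 11.9, 12.8 and 13.1 CPM in Antisense_NC and 10.6, 7.55 and 10.4 CPM in Antisense_hnRNPK, again without overlap, with a log2 fold change of -0.41 (SE 0.14, edgeR adjusted p = 0.0191). Neither fall held in every alternative. The NKD1 call was lost without the second or without the third Antisense_NC library, in a single fit of all libraries and in the FPKM fits. ZNRF3 stayed lower but ranged from -0.59 to -0.16 over 17 alternatives, with adjusted p-values up to 0.280.

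WNT6 was the gene with the largest difference of the set here, which is why it was included. Its counts were 18, 13 and 2 in the Antisense_hnRNPK libraries, or 0.682, 0.421 and 0.0779 CPM, against 2.67, 1.90 and 1.69 CPM in Antisense_NC. The groups did not overlap, and the third hnRNPK library lay below the floor of 3 counts. The fitted log2 difference was -2.39 (SE 0.46), and -1.98 (SE 0.37) without that library. AXIN2 was at 1.17, 0.842 and 0.662 CPM in Antisense_hnRNPK, overlapping Antisense_NC, with a log2 fold change of -0.48 (SE 0.32, edgeR adjusted p = 0.211). TCF7, at 6.14, 9.23 and 6.43 CPM, spanned the Antisense_NC range, and its log2 fold change was -0.03 (SE 0.18).

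In every hnRNPK comparison the fold changes followed base composition. Across genes, which are not independent replicates and share their libraries, the log2 fold change correlated with transcript GC content at a Spearman's rho of -0.71 in antisense cells over 14501 genes, of which 98.9% had a GC value. The WNT6 transcript has a GC content of 70.4%, above 99.6% of tested genes, and that of CTNNB1 has 43.5%, above 30.3% of them. With each library's trend on GC content and length removed, 0 of 6 genes passed in antisense cells while 38.8% of all genes still did: CTNNB1 stood at 0.21 (SE 0.08, edgeR adjusted p = 0.0561), ZNRF3 at -0.25 (SE 0.12, adjusted p = 0.121) and NKD1 at -0.26 (SE 0.15, adjusted p = 0.179). WNT6 stood at -1.76 (SE 0.44). The fall of AXIN2, TCF7 and RNF43 in Antisense_NC against Ctrl_NC, where rho was -0.30, was -1.31, -0.95 and -0.49 with the trend removed. Whether the trend arose in the cells or in the libraries was not tested.

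**Figure D3:**
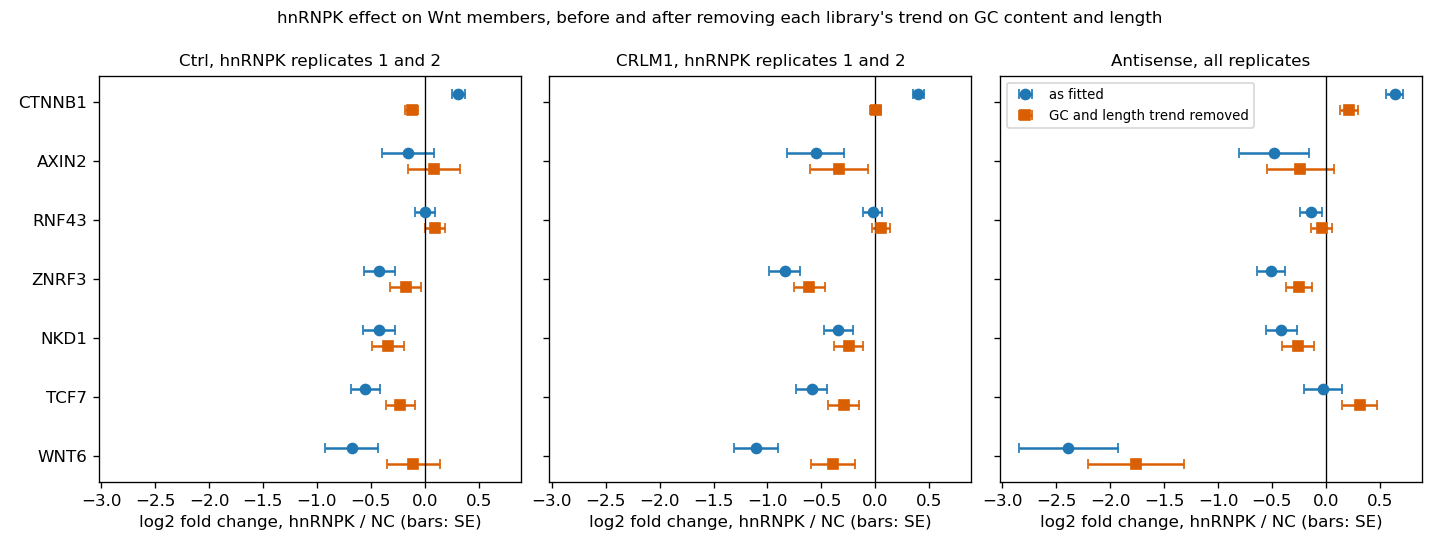
Log2 fold change of hnRNPK against NC libraries with its SE (x axis) for 7 genes (y axis) in the 3 backgrounds; circles are the fit to the counts and squares the same fit after removal of each library's trend on GC content and length, with the third hnRNPK library left out for Ctrl and CRLM1. In antisense cells CTNNB1 moves from 0.64 to 0.21 and WNT6 from -2.39 to -1.76.

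In the Ctrl background hnRNPK changed none of these genes past the test when all libraries were used. The count was 0 of 7 by edgeR and by DESeq2, and the background was 0% of 14607 genes, with 2246 genes and 0 of the 7 at an unadjusted p under 0.05. The third library set this result. CTNNB1 was at 192, 184 and 165 CPM in Ctrl_hnRNPK, TCF7 at 8.90, 9.98 and 14.3 CPM and ZNRF3 at 7.73, 9.09 and 12.5 CPM. In each of these genes the third value was the nearest to the controls. AXIN2 went the other way, at 2.94, 2.54 and 2.17 CPM, and was farthest from the controls in the third library. Without it 5 of 7 passed against a background of 59.6%: CTNNB1 was higher by 0.31 (SE 0.06), and ZNRF3 at -0.42 (SE 0.14), NKD1 at -0.43 (SE 0.15), TCF7 at -0.55 (SE 0.13) and WNT6 at -0.68 (SE 0.25) were lower. With the GC and length trend removed as well, 0 of 7 passed by edgeR, although 27.1% of all genes did. CTNNB1 then turned to -0.12 (SE 0.06) and WNT6 stood at -0.11 (SE 0.25), while NKD1 was at -0.34 (SE 0.15, edgeR adjusted p = 0.0978).

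The CRLM1 background gave a similar picture. With all libraries 0 of 7 genes passed by edgeR and by DESeq2, the background was 0% of 14394 genes, and 1332 genes had an unadjusted p under 0.05, among them 1 of the 7, TCF7, with a log2 fold change of -0.59. CTNNB1 was at 202, 207 and 134 CPM in CRLM1_hnRNPK, so the third library was below every CRLM1_NC library and the others were above. WNT6 was at 3.11, 3.05 and 7.36 CPM, with the third library inside the CRLM1_NC range. Without the third library 5 of 7 passed against a background of 58.5%: CTNNB1 at 0.40 (SE 0.05), ZNRF3 at -0.84 (SE 0.15), NKD1 at -0.34 (SE 0.13), TCF7 at -0.59 (SE 0.15) and WNT6 at -1.11 (SE 0.20). Of these, ZNRF3 still passed with the trend removed, at -0.61 (SE 0.14, edgeR adjusted p = 0.00159), and CTNNB1 was then at 0.00 (SE 0.05).

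Whether the hnRNPK effect differed between backgrounds was tested by an interaction term. With all libraries 0 of the genes passed in the 3 pairs of backgrounds, where 0%, 0% and 1.12% of all genes did. Leaving aside WNT6 in the pairs with antisense cells, the unadjusted p was under 0.05 for 1 gene, CTNNB1, in antisense against control cells. In that pair 2179 of all 15346 genes were under 0.05 as well, and the edgeR adjusted p of CTNNB1 was 0.316. Next, the third hnRNPK library of both backgrounds in a pair was left out. The antisense one had not stood apart, and correlated at 0.988 to 0.994 with its own replicates. Without these libraries the effect on CTNNB1 was larger in antisense than in control cells by 0.31 (SE 0.10, edgeR adjusted p = 0.0336, background 16%). The effect on TCF7 was lower in CRLM1 than in antisense cells by a log2 difference of -0.65 (SE 0.24, edgeR adjusted p = 0.0476, background 26.5%). Between CRLM1 and control cells 0 genes of the set passed, where 3.45% of all genes did.

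Beyond the named set, 7 lists of other Wnt pathway genes were counted, with 83 of 99 genes in the count table. In Antisense_NC against Ctrl_NC, 23 of 67 tested genes were higher and 30 lower, with a median log2 fold change of -0.12 against 0.00 over all genes, where 34.4% were higher and 32.2% lower. Ligand genes were mostly lower, 7 of 10 with 1 higher, and so were intestinal target genes, 7 of 9. Genes of the destruction complex and Dishevelled were mostly higher, 10 of 15 with 3 lower.

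Among these, APC, the tumour suppressor of the destruction complex, went from 1.51 ± 0.268 to 5.31 ± 0.353 CPM (SD, n = 3), a log2 fold change of 1.76. BTRC, which recognises phosphorylated β-catenin, rose by 1.49996 and CHD8, a chromatin remodeller that binds β-catenin, by 1.25. On the low side were the ligand genes WNT10A at -2.12 and WNT3A at -1.61, and NOTUM, an extracellular enzyme that inactivates Wnt proteins, at -1.52. All 6 passed with the GC and length trend removed, with log2 fold changes of 1.44, 1.38, 1.25, -1.88, -1.34 and -1.23.

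In CRLM1_NC against Ctrl_NC 12 of 67 were higher and 20 lower. Of all genes 16.9% were higher and 17.4% lower. In a single fit of all 18 libraries 0 of these genes and 102 of all 15668 passed, so no call on these lists held there. All 4 tested genes of the list of Wnt secretion and R-spondins, which also holds NOTUM, were lower. Of the destruction complex genes 6 of 15 were higher with 1 lower. APC was higher by 0.98 and BTRC by 0.66, while WNT3A was lower, at -0.78, as were WNT10B at -0.59 and KREMEN2, a co-receptor of Dickkopf inhibitors, at -0.57. In CRLM1_NC against Antisense_NC 27 of 66 were higher and 22 lower, against 26.9% and 29.5% of all genes, led by WNT7A at 1.63 and WNT10A at 1.60, with the receptor gene FZD6 lowest at -1.07.

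With hnRNPK in antisense cells, 13 of 66 were higher and 37 lower, with a median of -0.44 against 0.04 over all genes, where 33.4% were higher and 30.5% lower. Nuclear partners of β-catenin were lower in 9 of 12 cases and higher in 0. Without the third hnRNPK library 13 of 66 were higher and 41 lower, against 31% and 31.3% of all genes, and 12 of 12 nuclear partners were lower. TCF7L1, a TCF/LEF factor that often represses, went from 34.7 ± 0.993 to 11.6 ± 2.44 CPM, a log2 fold change of -1.60, and TLE2, a Groucho co-repressor, from 46.5 ± 0.796 to 17.6 ± 0.940 CPM (-1.41). EPHB3, an Eph receptor induced by Wnt in the crypt, was at -1.68. FZD6 and FZD4, both Frizzled receptors, rose by 1.33 and 1.13, and APC by 1.04. With the GC and length trend removed 5 were higher and 27 lower of 66, with a median of -0.20. Of all 14501 genes 38.8% passed in that setting, with a median of -0.02, and their shares by direction were not computed. TCF7L1 at -0.99, TLE2 at -0.75, EPHB3 at -1.05, FZD6 at 0.65, FZD4 at 0.90 and APC at 0.44 all still passed.

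In the Ctrl and CRLM1 backgrounds 0 of 68 and 0 of 66 of these genes passed with all libraries. Without the third hnRNPK library 15 were higher and 35 lower of 68 in Ctrl cells, and 16 higher and 32 lower of 67 in CRLM1 cells. Over all genes 29.6% were higher and 29.9% lower in the former, and 29.5% and 29.1% in the latter. FZD6 rose in both, by 1.04 and 1.06, and NOTUM fell in both, at -1.07 and -0.89. With the trend also removed FZD6 passed at 0.37 and 0.46 and NOTUM at -0.50 and -0.27.

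**Figure D4:**
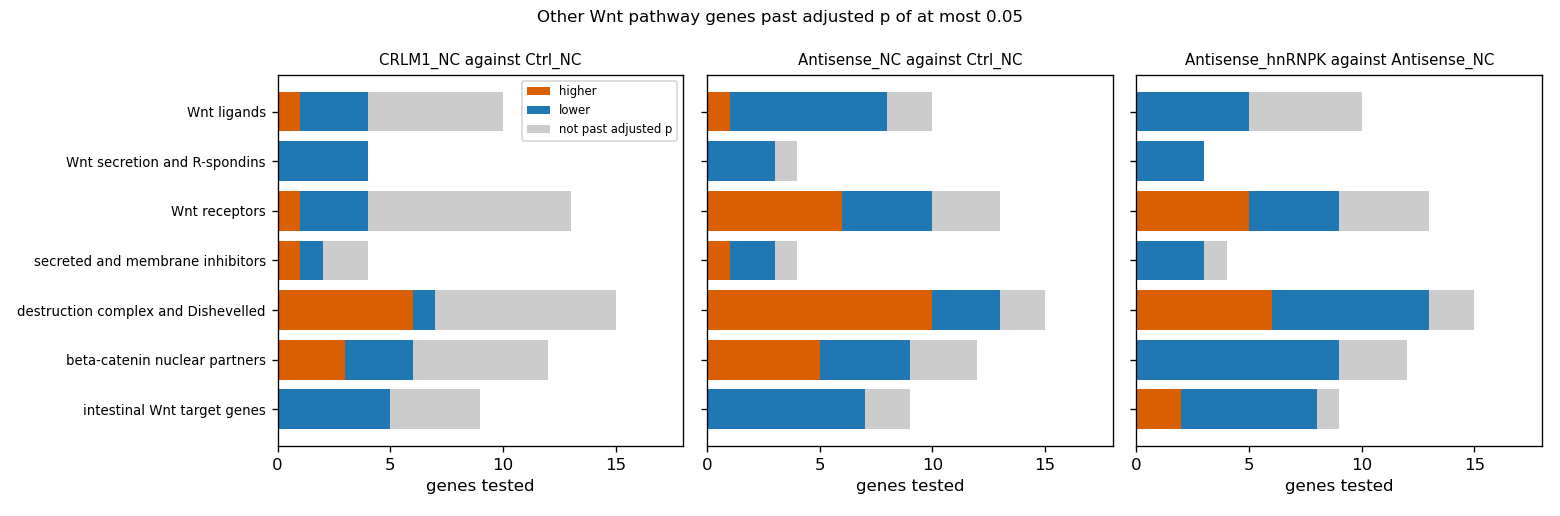
Number of tested genes (x axis) in 7 lists of other Wnt pathway genes (y axis) that were higher, lower or not past an adjusted p of 0.05, in 3 comparisons. In Antisense_NC against Ctrl_NC 7 of 10 ligand genes were lower and 10 of 15 destruction complex genes higher, and with hnRNPK in antisense cells 9 of 12 nuclear partners were lower.

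The genes whose profile over the 18 libraries was most like that of AXIN2 were sought among 12959 genes by the root mean square difference of centred log2 CPM. They were WASH2P at 0.204, which has near-identical copies and is uncertain for that reason, LINC00887 at 0.245 and RP11-323N12.5 at 0.281. The profile of AXIN2 itself had a root mean square of 0.718 about its mean. The same search for LGR5 was not possible.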

How the data were processed

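RNA-seq libraries were made with the KAPA RNA HyperPrep kit; per the labels and the study's methods, the authors trimmed reads with FASTX-Toolkit and aligned them to GRCh38 with Gencode gene models by TopHat2. The deposited count table holds uniquely mapped reads per gene, not normalised. The deposited FPKM table holds the authors' values per exon length and mapped fragments, used here to compare levels between genes. Strand use in counting is not given in the sources used here.

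Counts were tested with edgeR 4.0.16 in R 4.3.3: each comparison on its own 6 libraries (12 for interactions), TMM, filterByExpr, robust quasi-likelihood F-test, two-sided, Benjamini-Hochberg over all genes tested, pass at 0.05. SE is the absolute log2 fold change over the square root of F. CPM were scaled over all 18 libraries. The fit of Antisense_NC against Ctrl_NC was tested on simulated counts, and the other comparisons and alternatives were not. The simulation changed far fewer genes than passed in the data and held no trend on GC content, so it cannot show how the fit behaves under either. Alternatives were RLE size factors, no filter, DESeq2 1.42.0, a replicate block, 1 fit of all libraries, limma-trend 3.58.1 on log2(FPKM + 0.1) and log2(FPKM + 1), each library left out, and offsets without each library's smooth trend on GC content and length (mgcv 1.9.3, transcripts of Gencode 44). The FPKM fits kept genes of at least 0.5 FPKM in 3 libraries. Removing the trend with the third hnRNPK library left out was chosen after seeing the data, as were the alternatives for the wider lists.

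The genes, lists and tests were chosen with earlier results of these data known. Named genes were the set, HNRNPK and LINC01767, and the 3 genes most like AXIN2. Others were drawn, per comparison, from the 3 highest and 3 lowest list genes past the test whose mean reached 1 CPM. Not all of those are named, and LGR4, TCF7L2 and AXIN1 were named outside this rule. Precision is limited by 3 replicates per group, and count floors cover counting error only. Numbered replicates did not deviate together.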

Additional observations from a re-analysis of the deposited data

How the results depend on the processing

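The calls for AXIN2, TCF7 and RNF43 in Antisense_NC against Ctrl_NC and in CRLM1_NC against Antisense_NC kept direction and threshold in every alternative that gave a value. Of 849 values of single genes, 781 kept direction and side of the threshold, 34 lost the call, 20 gained it, 12 untested values moved beyond the replicate spread and 2 reversed; the 781 include 56 sign changes where neither value passed. The reversed values are CTNNB1 in Antisense_NC against Ctrl_NC, -0.0877 with the GC and length trend removed and -0.0872 with the replicate block as well.

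The count of set genes past the test in CRLM1_NC against Ctrl_NC, 1, became 0 with DESeq2, the replicate block, the single fit, FPKM without a filter, and the trend removed with or without the block, and 0 to 1 on leaving out a library. In Antisense_NC against Ctrl_NC, 5 became 3 in the single fit and 3 to 5 on leaving out a library. For hnRNPK in antisense cells, 3 became 1 in the single fit, in all 3 FPKM fits and with the trend removed without the third library, and 0 with the trend removed, with or without the block. For hnRNPK, leaving out a library gave 0 to 5 in both the Ctrl and CRLM1 backgrounds, 5 without the third hnRNPK library, and in CRLM1 cells 1 with the trend also removed. The interactions of antisense with control and with CRLM1 cells went from 0 to 1 without the third libraries, also with the trend removed.

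For the wider lists, the single fit gave 0 in place of 32 genes for CRLM1_NC against Ctrl_NC, where FPKM without a filter gave 21; it gave 19 in place of 49 for CRLM1_NC against Antisense_NC and 31 in place of 53 for Antisense_NC against Ctrl_NC. Of all 15668 genes, 102, 2357 and 5093 passed in these single fits. For hnRNPK, leaving out a library gave 0 to 50 genes in Ctrl cells and 0 to 48 in CRLM1 cells. With the trend removed and the third library out it was 21 and 22, where 27.1% and 26.9% of all genes passed. In antisense cells it was 32 in place of 50 with the trend removed, and 33 with the block, where 38.8% and 38.3% of all genes passed. The cause of these changes in the counts was not tested. On log2(FPKM + 0.1) the median log2 fold change of all genes was 0.24 in Antisense_NC against Ctrl_NC, where it was 0.00 on counts, and 0.23 with hnRNPK in antisense cells, where it was 0.04 on counts.

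Replicate numbers did not pair the libraries: over 12959 genes, same-numbered deviations correlated from -0.12 to 0.06. The block changed no other call of a count. AXIN2 and WNT6 rest on few counts, 17 to 90 and 2 to 171 per library.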
